A study of Mus musculus with 4 samples.

Results

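Transcripts of 10 genes that mark the mesothelium were followed in mouse embryonic fibroblasts (MEFs) lacking cyclin G1 or cyclin G2 and in their wild-type (WT) controls. The genes were Wt1, Msln, Upk3b, Upk1b, Lrrn4, Gpm6a, Krt8, Krt18, Krt19 and Muc16. They were chosen by their names as known markers, with the measured G1KO ratios already in view, so the ratios and levels below are a description and no test was run on them. The array read them with 13 probes, out of 41174 probes with 27597 gene names. Of these genes, 9 (12 probes) carried their own symbol in the scanner files, and Lrrn4 (1 probe) appeared under an older clone name and was identified by its RefSeq accession. Gpm6a, Krt8 and Muc16 had 2 probes each. For them the brighter probe is given in full and the dimmer one beside it.

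The series asked which transcripts change when either cyclin G gene is lost. It held 1 culture of each of 4 kinds, all from C57BL/6J mice by the strain field of the labels, grown without treatment to logarithmic phase. These were CycG1-/- MEFs (G1KO, whose mutant allele lacks every protein-coding exon of Ccng1), their CycG1+/+ control (the WT of the G1KO pair), CycG2-/- MEFs (G2KO) and their CycG2+/+ control (the WT of the G2KO pair). MEFs are primary cells grown out of mid-gestation embryos. The labels do not say how many embryos stand behind a culture. Each knockout RNA was hybridised together with its control on 2 arrays with the Cy5 and Cy3 dyes exchanged, so there was 1 sample per genotype, no p-value could be had, and every ± is the technical SD between the 2 arrays of a pair. A probe was tested where it was well above background in at least 1 genotype on both arrays, and it was called where both arrays showed a change of 2-fold or more (log2 ratio of 1) in the same direction.

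Some facts of the whole series bear on every value below. Between 25366 and 27757 of 43379 gene spots were well above background per array and channel, and all arrays shared 1 slide and 1 scan. The targeted gene Ccng1 was lower in G1KO by a log2 ratio of -6.67 ± 0.13. In G2KO over WT Ccng1 was higher, with log2 ratios of 2.67 ± 0.03 at the same probe and 2.49 ± 0.04 at its other probe. Its relative Ccng2, at the only probe for it, stood at 0.09 ± 0.27 (log2 ratio) in G2KO over WT, so no loss was seen at that probe. Whether the probe lies in the deleted part of Ccng2 was not analysed, and that RNA is called the RNA labelled G2KO. Xist, the RNA that coats the inactive X chromosome of female cells, was higher in both knockout RNAs, with log2 ratios of 7.54 ± 0.43 and 7.24 ± 0.46, so genotype and the sex of the embryos cannot be told apart in either pair. Of 12 fibroblast genes such as Col1a1, Thy1 and Pdgfrb, 12 were well above background in each of the 4 cultures. Some were low, such as Lum in the WT of the G1KO pair (mean log2 level 6.48) and Pdgfra in the RNA labelled G2KO (7.01). Their detection goes with the labelled cell type but does not settle it.

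The mesothelium is the thin epithelial sheet of mesodermal origin that covers the heart, lungs, gut and other organs and lines the body cavities. Its cells carry keratins and apical membrane proteins as an epithelium does, and together with these a mesenchymal programme that includes vimentin. In the embryo the cells can leave the sheet, lose the epithelial genes and enter the underlying organ as fibroblasts and smooth muscle cells. The transcription factor WT1 is active in the sheet, and it is needed for heart, kidney and gonad to form.

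The sequences in front of the start sites of 5 of these genes are shown, namely Gpm6a and Lrrn4, which had the lowest ratios in G1KO, the uroplakin gene Upk3b, and the keratin partners Krt8 and Krt18, whose ratios differed. They are the 250 bases before a RefSeq start site (build GRCm38.p6), written 5′ to 3′ on the strand of the gene. Capitals mark a match to any of 4 motifs searched on both strands, which were GCGTGGG (bound by WT1 and EGR1), GGGCGG (the GC box), TATAAA (the TATA box) and AGATAA (bound by GATA factors). The motifs do not overlap in these stretches.
Lrrn4 (chr2:132880863-132881112, minus strand): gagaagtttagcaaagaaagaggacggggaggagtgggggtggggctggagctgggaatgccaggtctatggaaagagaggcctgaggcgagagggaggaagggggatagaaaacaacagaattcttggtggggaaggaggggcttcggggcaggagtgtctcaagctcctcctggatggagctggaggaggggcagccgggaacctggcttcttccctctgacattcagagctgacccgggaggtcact
Gpm6a (chr8:54954478-54954727, plus strand): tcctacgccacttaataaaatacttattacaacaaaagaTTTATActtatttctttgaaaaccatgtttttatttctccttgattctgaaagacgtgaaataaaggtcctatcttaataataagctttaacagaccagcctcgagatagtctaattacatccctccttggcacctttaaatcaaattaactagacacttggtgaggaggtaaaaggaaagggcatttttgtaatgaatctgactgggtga
Upk3b (chr5:136038246-136038495, plus strand): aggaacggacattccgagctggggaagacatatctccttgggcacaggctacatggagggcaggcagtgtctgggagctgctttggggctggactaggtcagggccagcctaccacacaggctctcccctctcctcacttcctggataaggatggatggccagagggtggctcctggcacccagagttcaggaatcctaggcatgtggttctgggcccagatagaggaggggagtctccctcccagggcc
Krt8 (chr15:102004343-102004592, minus strand): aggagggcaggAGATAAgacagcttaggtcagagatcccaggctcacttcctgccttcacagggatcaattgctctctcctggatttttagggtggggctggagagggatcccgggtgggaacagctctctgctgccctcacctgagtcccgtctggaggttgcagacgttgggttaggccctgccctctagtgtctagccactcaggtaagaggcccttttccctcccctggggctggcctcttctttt
Krt18 (chr15:102027966-102028215, plus strand): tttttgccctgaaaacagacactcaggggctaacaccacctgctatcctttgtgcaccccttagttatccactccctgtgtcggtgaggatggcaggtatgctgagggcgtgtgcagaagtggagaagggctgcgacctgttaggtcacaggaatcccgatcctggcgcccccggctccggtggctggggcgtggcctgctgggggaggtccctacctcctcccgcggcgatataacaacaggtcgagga
In all, 7 promoters of 6 of the genes were in the RefSeq table, among them those of Muc16 and of a second start site of Gpm6a. TATAAA was present in 1 of the 7, at -211 on the minus strand before the Gpm6a start site shown, against 12.4% of 32851 mouse promoters of this length. AGATAA was present in 1 of the 7, at -239 before Krt8, against 9.99% of promoters. GCGTGGG and GGGCGG were in none of the 7, and in 4.3% and 32.7% of all promoters. These letters are given as a description of the windows only.

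Mesothelial marker transcripts were abundant in the WT of the G1KO pair, lower in G1KO, and mostly undetected in the other pair. At the brightest probe of each gene, 10 of 10 were well above background in the WT of the G1KO pair and 10 in G1KO, but 3 in the WT of the G2KO pair and 2 in the RNA labelled G2KO. In G1KO, 9 of the 13 probes (8 genes) were called lower and 1 (Krt19) was called higher, where 3.8% of 25541 probes tested were called lower and 1.99% higher. The members' share is not read against that background, since the G1KO ratio was in view when they were chosen. Their median log2 ratio was -3.65, against -0.00 over all probes tested. In these bulk samples, fewer mesothelial cells and less RNA per such cell cannot be told apart.

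**Figure D1:**
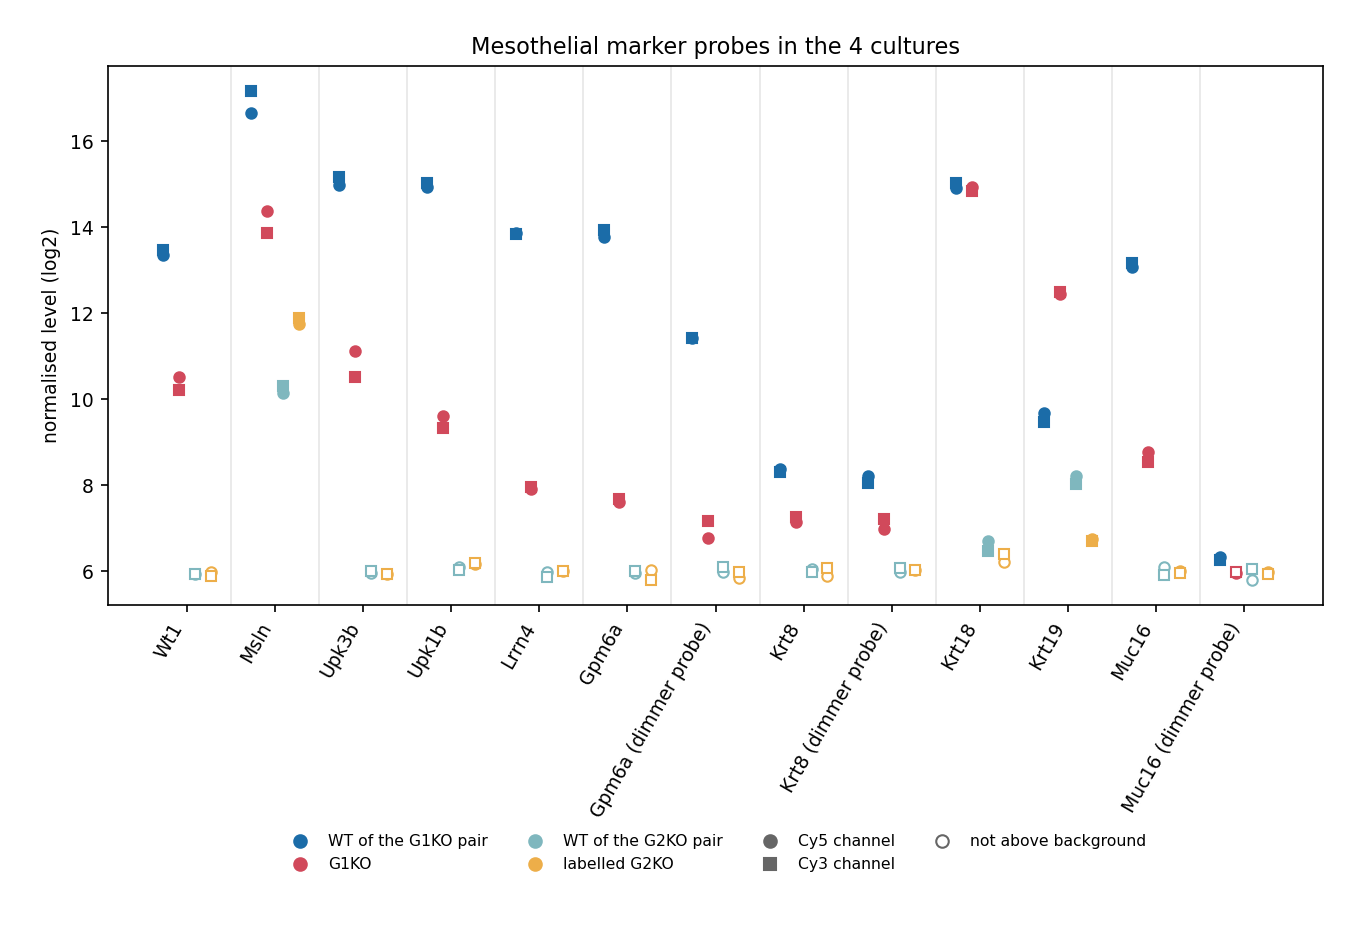
Normalised level (log2 scale, vertical axis) of the 13 probes in the 4 cultures, with 1 point for each array; circles are the Cy5 channel, squares the Cy3 channel, and open symbols mark cultures not well above background on both arrays for that probe. The WT of the G1KO pair stands highest for 9 of the 10 genes and G1KO for Krt19, while 7 genes are open in the WT of the G2KO pair.

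Wt1, which encodes the zinc finger factor of the mesothelium, was read by a probe printed 10 times (mm8, chr2:104974110-104974169, plus strand). Its normalised levels on the log2 scale were 13.35 in Cy5 and 13.46 in Cy3 in the WT of the G1KO pair, and 10.51 and 10.22 in G1KO. The 2 cultures did not overlap, and the log2 ratio of G1KO over WT was -2.95 and -3.14 on the single arrays, with a mean of -3.04 ± 0.13, or 8.25-fold lower. G1KO thus kept 12.1% of the WT level on this scale. In the other pair Wt1 was below the background criterion, with levels of 5.92 and 5.93 in the WT and 5.98 and 5.88 in the RNA labelled G2KO. On the array with that RNA in Cy3, 4 of the 10 Wt1 spots were marked as outliers and left out.

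Msln encodes mesothelin, a surface glycoprotein of mesothelial cells, and Muc16 the large mucin that binds it. Msln (chr17:25476224-25476283, minus strand) was, with Krt19, 1 of the 2 members above background in all 4 cultures, and both were called in both pairs. Its levels were 16.64 and 17.17 in the WT of the G1KO pair and 14.38 and 13.86 in G1KO. Those in the WT of the G2KO pair were 10.14 and 10.30, and in the RNA labelled G2KO they were 11.75 and 11.88. No 2 cultures overlapped, so the order was the WT of the G1KO pair, G1KO, the RNA labelled G2KO and last its WT. The log2 ratio was -2.79 ± 0.01 in G1KO (6.91-fold lower), and 1.60 ± 0.20 in the RNA labelled G2KO (3.02-fold higher), with 1.45 and 1.74 on the single arrays.

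The brighter Muc16 probe (chr9:18245914-18245973, minus strand) had levels of 13.08 and 13.15 in the WT of the G1KO pair and 8.76 and 8.55 in G1KO, a log2 ratio of -4.46 ± 0.10, or 22.0-fold lower. It was not well above background in the other pair. The dimmer probe (chr9:18310974-18311033) rests on a predicted transcript and barely rose above background in the WT of the G1KO pair, at 6.34 and 6.27. G1KO was not well above background there, and the WT was at least 1.22-fold higher. The dimmer probe was not called, at a log2 ratio of -0.34 ± 0.03, but with the scanner software's own ratio it was called lower, at -2.68.

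The uroplakins are membrane proteins known from the plaques of the bladder lining, and Upk3b and Upk1b are also expressed in mesothelium. Upk3b (chr5:136329279-136329338, plus strand) had levels of 14.97 and 15.16 in the WT of the G1KO pair and of 11.11 and 10.52 in G1KO. Its log2 ratio was -4.05 and -4.45 on the single arrays, with a mean of -4.25 ± 0.28 (19.0-fold lower). This was the widest spread between arrays of the brightest probes, and it was small beside the ratio. Upk1b (chr16:38693078-38693137, minus strand) had levels of 14.92 and 15.02 in the WT of the G1KO pair and of 9.61 and 9.32 in G1KO, a log2 ratio of -5.51 ± 0.14 (45.4-fold lower). Neither gene was well above background in the other pair. The uroplakins of the bladder plaque that were not chosen, Upk1a, Upk2 and Upk3a, were above background on both arrays in none of the 4 cultures, so the 2 mesothelial uroplakins were read without the others.

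Lrrn4 encodes a leucine-rich repeat membrane protein, and Gpm6a a proteolipid-family membrane glycoprotein that is best known from neurons. They had the lowest log2 ratios among the members. Lrrn4 (chr2:132560195-132560254, minus strand) stood at 13.86 and 13.84 in the WT of the G1KO pair and at 7.91 and 7.96 in G1KO, so that 1.66% of the WT level was left. The brighter Gpm6a probe (chr8:56558884-56558943, plus strand) stood at 13.76 and 13.92 in the WT and at 7.62 and 7.69 in G1KO, with 1.37% left. Of the 25541 probes tested, that Gpm6a probe was 4th from the lowest ratio, Lrrn4 6th and Upk1b 8th. The shares left depend on the processing, and the log2 ratio of Lrrn4 was -5.92 here and -6.25 with the scanner software's own ratio. The dimmer Gpm6a probe (chr8:56557660-56557720) had a log2 ratio of -4.45 ± 0.28 against -6.19 ± 0.17 at the brighter one, so both probes were called lower and differed in size. With the scanner software's own ratio the dimmer one stood at -5.40 and the brighter one at -6.70. At the brightest probes of the relatives of these genes the pattern was another. Gpm6b, the paralogue of Gpm6a, was called higher both in G1KO (2.25 ± 0.04) and in the labelled G2KO (5.90 ± 0.04), and Lrrn3 was called higher in G1KO (2.84 ± 0.02). A dimmer probe of Gpm6b stood at 0.66 in the RNA labelled G2KO, and that of Lrrn3 at 0.40 in G1KO. Neither of these dimmer probes was called. Lrrn1 and Lrrn2 were not tested in either pair.

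**Figure D2:**
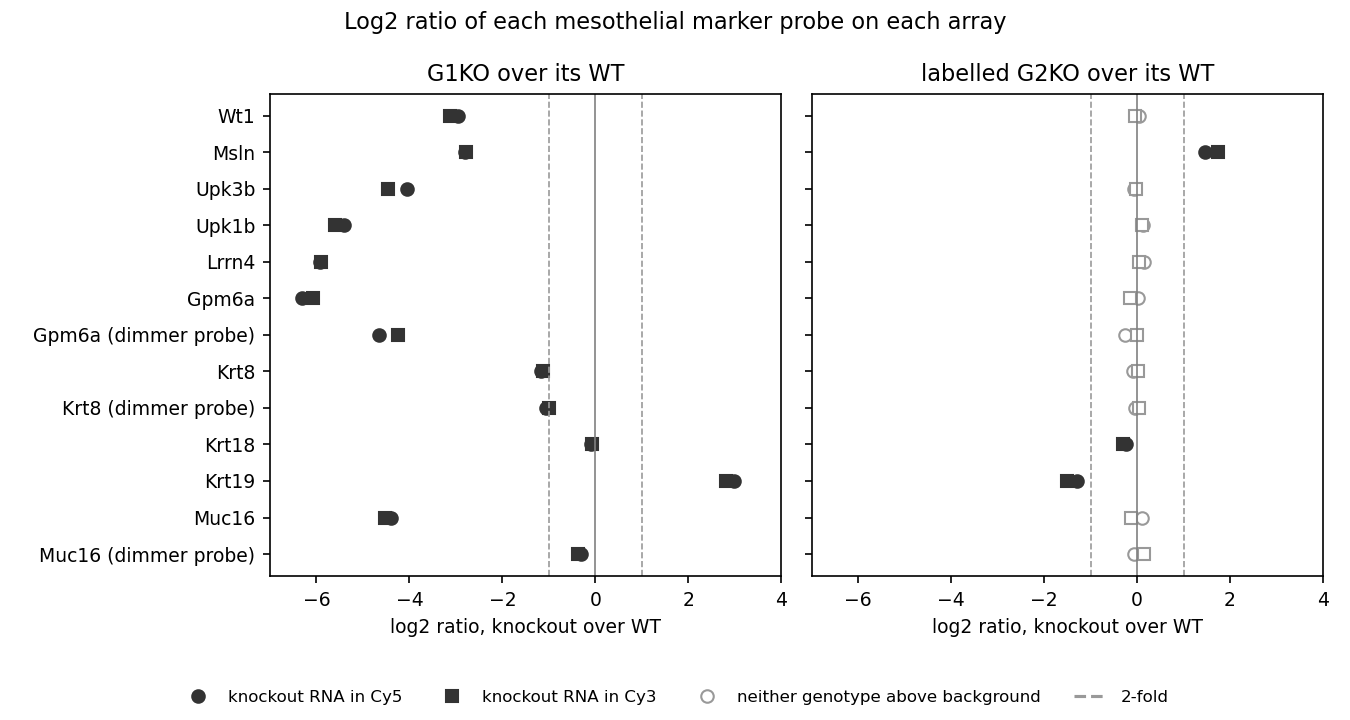
Log2 ratio of knockout over WT (horizontal axis) for each of the 13 probes on each array, with G1KO on the left and the RNA labelled G2KO on the right; circles have the knockout RNA in Cy5, squares in Cy3, open symbols mark probes not tested, and dashed lines mark 2-fold. In G1KO the points run from -6.31 for Gpm6a to 2.98 for Krt19, and in the other pair Msln and Krt19 alone lie past 2-fold.

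The keratins of simple epithelia did not share 1 pattern. Keratin 8 (type II) and keratin 18 (type I) pair to form the intermediate filaments of simple epithelia, and keratin 19 is a type I keratin that can take the place of keratin 18. The start sites of Krt8 and Krt18 lie 23.9 kb apart on chromosome 15 of GRCm38.p6. Krt18 (chr15:101859944-101860003, plus strand) had levels of 14.90 and 15.02 in the WT of the G1KO pair and of 14.93 and 14.84 in G1KO. These ranges overlapped, and the log2 ratio was -0.08 ± 0.01. Its levels in the other pair were 6.71 and 6.46 in the WT and 6.21 and 6.40 in the RNA labelled G2KO, where it was not well above background. The WT of the G2KO pair was at least 1.22-fold higher than the RNA labelled G2KO, a log2 ratio of -0.28 ± 0.04 that was not called, and with the scanner software's own ratio Krt18 was called lower there, at -1.58. Krt18 was thus not called in G1KO, where both arrays gave a ratio slightly below 0 (-0.09 and -0.07), and G1KO was at least 383-fold above the RNA labelled G2KO.

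Krt8 was read by neighbouring probes (chr15:101824949-101825008 and chr15:101824817-101824876, minus strand). At the brighter one the levels were 8.37 and 8.30 in the WT of the G1KO pair and 7.14 and 7.26 in G1KO. The log2 ratio was -1.16 and -1.11 on the single arrays and was called (-1.14 ± 0.03, 2.20-fold lower). At the dimmer one it was -1.06 and -0.99, so the second array fell just short of 2-fold and the probe was not called. It was called with the scanner software's own ratio, at -1.48. Krt8 was not well above background in the other pair. The Krt8 and Krt18 ratios in G1KO thus differed by more than the spread between arrays.

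Krt19 (chr11:99957168-99957227, minus strand) was the member that rose in G1KO. It had levels of 9.68 and 9.46 in the WT of the G1KO pair and of 12.44 and 12.50 in G1KO, a log2 ratio of 2.90 ± 0.11 (7.44-fold higher). It was 38th from the highest ratio among the 25541 probes tested. In the other pair the levels were 8.21 and 8.02 in the WT and 6.74 and 6.70 in the RNA labelled G2KO, a log2 ratio of -1.40 ± 0.16 (2.64-fold lower), which was -2.52 with the scanner software's own ratio. No 2 cultures overlapped, and the order was G1KO, its WT, the WT of the G2KO pair and the RNA labelled G2KO. Krt19 lies in the type I keratin cluster of chromosome 11, and its neighbours on the array moved otherwise. The Krt15 probe, 9.05 kb away on mm8, stood at -0.38 ± 0.19 (log2 ratio, G1KO) and was not called, while the Krt14 probe, 62.3 kb to the other side, was called lower (-2.09 ± 0.08). Krt14 is a keratin of basal epithelial cells. In the list of other keratins, which leaves out the mesothelial Krt7, it was the gene called among 5 tested of 7, and of 3 tested in the RNA labelled G2KO 0 were called. Krt7, a keratin of simple epithelia on chromosome 15, was called lower in G1KO (-2.87 ± 0.03) and higher in the RNA labelled G2KO (2.06 ± 0.00).

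In the RNA labelled G2KO, 3 of the 13 member probes could be tested, and 1 (Krt19) was called lower and 1 (Msln) higher. Over the whole array 4.06% of 25431 probes tested were called lower and 2.31% higher. The other 10 probes were not well above background in either culture of that pair, so no ratio is given for them. The G1KO and G2KO comparisons share no RNA.

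For 9 of the 10 genes, all but Krt19, the WT cultures differed from each other by more than G1KO did from its control. Neither shared an array with the other, so their levels were compared within each dye after normalisation between arrays. All 10 genes were at least 2-fold higher in the WT of the G1KO pair in both dyes at their brightest probe, and 12 of the 13 probes were. Over the array, 5.53% of 26035 probes tested were that much higher. The members' share is not read against that background. They were chosen with the G1KO ratios in view, and the WT of the G1KO pair is the control in those ratios. For 7 of the genes, only the WT of the G1KO pair was well above background, so they entered through that culture alone. The difference was 6.69 on the log2 scale for Msln, 8.38 for Krt18 and 1.46 for Krt19. The other genes were not well above background in the WT of the G2KO pair, so their differences are bounds. The WT of the G1KO pair was at least 513-fold higher for Upk3b, at least 464-fold for Upk1b, at least 221-fold for Lrrn4, at least 220.1-fold for Gpm6a, at least 163-fold for Wt1, at least 129-fold for Muc16 and at least 4.73-fold for Krt8. G1KO in turn stood above the WT of the G2KO pair in both dyes for 10 of 10 genes, among them Msln by 3.90 on the log2 scale, Upk3b by at least 27.0-fold, Wt1 by at least 19.7-fold and Gpm6a by at least 3.01-fold. The low ends of these bounds depend on the dimmest signal that counts as above background.

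**Figure D3:**
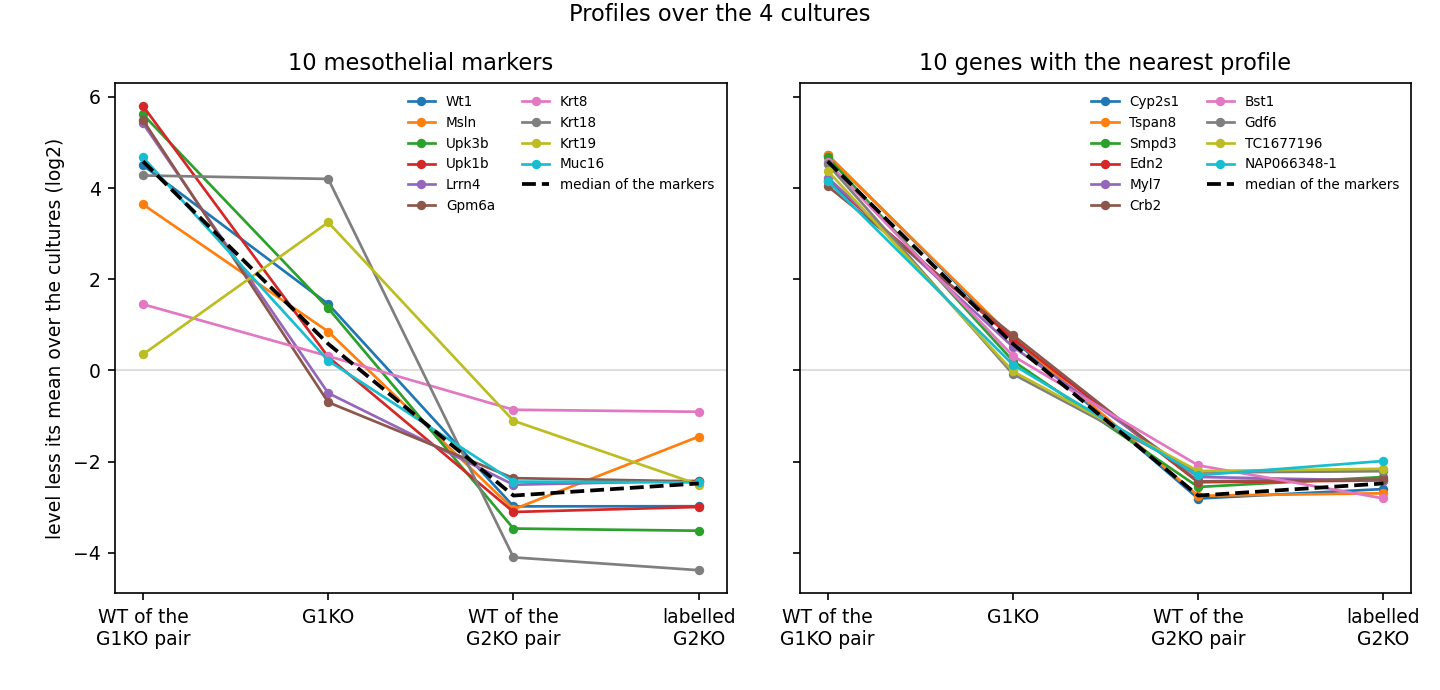
Mean level in each culture less the mean over the 4 cultures (log2 scale, vertical axis), for the 10 markers on the left and the 10 genes nearest to their median profile on the right; the dashed line is that median, at 4.59, 0.58, -2.74 and -2.48. Krt18, Krt19 and Krt8 lie farthest from it on the left, and Muc16 nearest.

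The median profile of the members over the cultures was 4.59 in the WT of the G1KO pair, 0.58 in G1KO, -2.74 in the WT of the G2KO pair and -2.48 in the RNA labelled G2KO, each less the mean over the 4. Muc16 lay nearest to it, with a root mean square distance of 0.24, followed by Wt1 at 0.52. The keratins lay farthest, with Krt8 at 1.99, Krt18 at 2.16 and Krt19 at 2.63. Of 26815 probes above background in some culture, the nearest outside the members was that of Cyp2s1, a cytochrome P450 (distance 0.11). It was followed by Tspan8, a tetraspanin (0.14), Smpd3, a neutral sphingomyelinase (0.23), Edn2, an endothelin (0.27), Myl7, the atrial myosin light chain (0.27), and Crb2, an apical polarity protein of epithelia (0.33). Bst1, Gdf6 and the unnamed transcripts TC1677196 and NAP066348-1 completed the nearest 10, at up to 0.46. Those 10 had log2 ratios of G1KO over WT between -4.60 for Gdf6 and -3.27 for Crb2. This likeness rests on 4 cultures and is a description. In the WT of the G2KO pair 7 of the 10 members, and in the RNA labelled G2KO 8, were not well above background, so their values there are those of floor signals, and the profile, the distances and their order depend on that floor.

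A wider list held 20 further genes known from mesothelium and its cardiac part, the epicardium, and was also drawn up with earlier results of these data known. In G1KO 15 of the 19 tested were called lower and 1 higher, with a median log2 ratio of -1.85, where 3.8% of all probes were called lower and 1.99% higher. The retinaldehyde dehydrogenase gene Aldh1a1 had a log2 ratio of -5.60 ± 0.32, the Wnt agonist gene Rspo1 -4.06 ± 0.10, Crb2 -3.27 ± 0.01, Bnc1, a zinc finger factor gene, -3.24 ± 0.05, and Sema3d, a semaphorin gene, -2.91 ± 0.08. Aldh1a2, which encodes the retinoic acid enzyme of embryonic mesothelium, went the opposite way to Aldh1a1 and was called higher (2.89 ± 0.11). The other 10 called lower, among them Krt7, Gata6, Tbx18, Pdpn, Podxl and Ezr, lay between -2.87 and -1.14. Of those named, the other probe of Podxl (-0.42) and 1 of 2 of Gata6 (-0.29) were not called. Those of Krt7 (-3.67), Tbx18 (-1.66) and Pdpn (-1.28) were. In the WT of the G1KO pair 14 of 19 tested were called higher than in the WT of the G2KO pair, where 5.53% of all probes were. Neither this share nor that in G1KO is read against all probes, since the list was drawn up with earlier results known. Aldh1a2, Bcam, Gata4, Plxna4, Podxl and Tcf21 passed the filter through the WT of the G1KO pair alone. Of these, Plxna4 and Podxl were called.

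The same list split in the RNA labelled G2KO, with 4 of 15 tested called higher and 4 lower, where 2.31% and 4.06% of all probes were. Those higher were Aldh1a1 (3.84 ± 0.10), Gata6 (2.62 ± 0.07), Krt7 (2.06 ± 0.00) and Podxl (1.78 ± 0.10), and Msln of the chosen markers rose with them. Those lower were Pdpn (-1.58 ± 0.06), Bnc1 (-1.41 ± 0.11), Sema3d (-1.34 ± 0.18) and Tbx18 (-1.16 ± 0.06). At their other probes tested, Gata6 (0.30), Podxl (0.63) and Tbx18 (-0.92) were not called, while Krt7 (1.65) and Pdpn (-1.73) were. Bnc1 and Sema3d were below the background criterion in that RNA, so for them the WT was at least 2.48-fold and 2.42-fold higher. Calb2, the calretinin gene used to recognise mature mesothelium, was not well above background in any culture at its brightest probe.

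**Figure D4:**
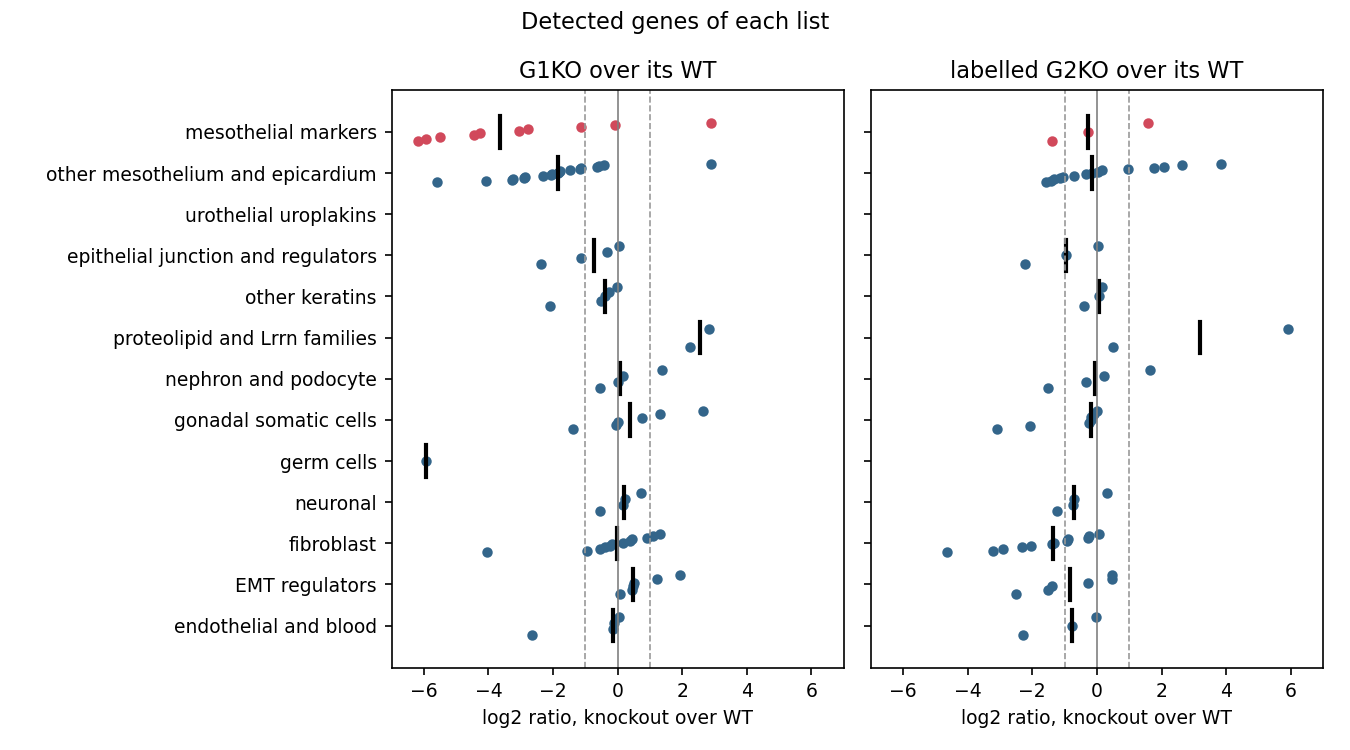
Log2 ratio of knockout over WT (horizontal axis) of each gene tested, at its brightest probe, by list, with G1KO on the left and the RNA labelled G2KO on the right; black bars are medians and dashed lines mark 2-fold. The mesothelial markers have a median of -3.65 in G1KO, the wider mesothelial list -1.85 and the fibroblast list -0.01, and lists without points had no gene tested.

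Of 12 genes of epithelial junctions and their regulators, Epcam, Cldn4, Cldn6, Elf3, Esrp1 and Grhl2 were not well above background on any array, and Cldn3 was well above background on both arrays in the other 3 cultures and on 1 array of the RNA labelled G2KO. In G1KO 4 were tested. Of those, Spint1 (-2.36 ± 0.21) and Dsp (-1.14 ± 0.10) were called lower, and Cdh1, the E-cadherin gene, had a log2 ratio of -0.32 ± 0.09. The other probe tested of Spint1 (-1.92) was called too, and that of Dsp (-0.85) was not. Dsp alone was called in the RNA labelled G2KO (-2.23 ± 0.12, lower). Wt1 is also used by kidney cells. Of 8 nephron and podocyte genes, 3 were well above background in the WT of the G1KO pair and 4 in each of the other cultures, among them Cited1 and Osr1 in all 4, while Nphs1, Six2, Pax8 and Lhx1 were not well above background in any. Osr1 was called higher in both G1KO (1.37 ± 0.06) and the RNA labelled G2KO (1.63 ± 0.04), and Synpo lower in the latter (-1.52 ± 0.14). The other Osr1 probe was not called in G1KO (0.98) and was called in the RNA labelled G2KO (1.27).

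Somatic cells of the gonad use Wt1 as well. In that list Lhx9 (2.63 ± 0.32) and Sox9 (1.32 ± 0.19) were called higher in G1KO and Star lower (-1.39 ± 0.04), of 6 tested. Sox9 (-3.08 ± 0.12) and Lhx9 (-2.09 ± 0.31) were called lower in the RNA labelled G2KO, of 7 tested. Of 2 other Lhx9 probes, 1 was not called in G1KO (0.66) or in the RNA labelled G2KO (-0.36). Of 2 other Sox9 probes tested in the latter, 1 was not called (-0.50). Nr5a1, the factor gene of gonad and adrenal, stood low in all 4 cultures, at log2 levels between 6.93 and 7.15. Of 6 germ cell genes, Ddx4 alone was tested, with levels of 14.30 in the WT of the G1KO pair and 8.37 in G1KO and a log2 ratio of -5.93 ± 0.03. It was at least 292-fold higher in the WT of the G1KO pair than in the WT of the G2KO pair. The other germ cell genes Dppa3, Kit, Pou5f1 and Tex14 were not well above background in any culture. Ddx4 thus followed the mesothelial markers while these germ cell genes did not, and its part in the result was not tested.

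Of 12 fibroblast genes tested in G1KO, 2 were called higher, Lum (1.31 ± 0.04) and Pdgfrb (1.09 ± 0.01), and 1 lower, Dcn (-4.05 ± 0.12), where 1.99% of all probes were called higher and 3.8% lower. Their median log2 ratio was -0.01. These values are those of the brightest probes, and the other Dcn probe tested stood at -0.89 in G1KO and was not called. The summed level of the list on a linear scale was 441722 and 453331 in the WT of the G1KO pair and 310339 and 372135 in G1KO, while that of the 10 mesothelial markers was 245058 and 302070 against 54170 and 63548. Such sums weigh the brightest genes most. Among the markers these were Msln in the WT (mean log2 level 16.91) and Krt18 in G1KO (14.88). Of the 12, 7 were called lower in the RNA labelled G2KO, led by Pdgfra (-4.63 ± 0.09), Thy1 (-3.22 ± 0.18), Col3a1 (-2.90 ± 0.14), Col1a2 (-2.31 ± 0.42), Prrx1 (-2.03 ± 0.06) and Col1a1 (-1.38 ± 0.02), and none higher. At other probes tested in that RNA, Pdgfra (-0.59) and 1 of 2 of Col3a1 (-0.27) were not called, while Thy1 (-3.28) and Col1a2 (-1.62) were. The summed fibroblast level there was 191499 and 268084, against 574782 and 653422 in its WT. The part of these shifts in the ratios of the mesothelial markers was not tested.

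Genes that drive the passage from epithelium to mesenchyme were above background in all 4 cultures. Of 6, Twist2 (1.94 ± 0.01) and Snai2 (1.22 ± 0.12) were called higher in G1KO. In the other pair Twist2 (-2.49 ± 0.07), Snai2 (-1.50 ± 0.16) and Snai1 (-1.40 ± 0.06) were called lower. Snai1 in G1KO had a log2 ratio of 0.48 ± 0.04, and Zeb1 and Zeb2 lay between 0.06 and 0.49 in both pairs. Of the 8 endothelial and blood genes, Cdh5, Pecam1, Ptprc and Tie1 were not well above background in any culture, and Cd68 was in all 4. Kdr was above background in both cultures of the G1KO pair and was at least 3.51-fold higher in the WT of that pair than in the WT of the other. Emcn was called lower in G1KO (-2.65 ± 0.08), and Cd34 in the RNA labelled G2KO (-2.29 ± 0.10). Of the 8 neuronal genes, in which Gpm6a is otherwise known, none of 4 tested was called in G1KO and Map2 was called lower in the RNA labelled G2KO (-1.24 ± 0.04).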

How the data were processed

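RNA of 4 MEF cultures was measured on 4 Agilent 2-colour arrays (design build mm8). The deposited scanner files hold linear spot intensity values, which the authors extracted with Agilent's Feature Extraction software (file headers 10.5.1.1, submitters' processing notes 9.1) and did not background-correct. The log10 ratio of the same software was deposited too, and the authors' series table holds it turned to knockout over WT (r = 0.999999, or -0.999999 on swapped arrays). These ratios served as alternatives, and the deposited p-values of single arrays were not used. Other deposited values used were flags for outlying and dim spots.

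Intensities were corrected with limma 3.58.1 (R 4.3.3) by normexp with an offset of 50, which makes fold changes of dim probes too small. Control spots and 114 to 203 outlier spots per array were left out. Arrays were normalised by loess, and levels in addition by Aquantile between arrays. Spots of a probe were averaged, and the arrays of a pair, a technical dye swap, counted as 1 replicate. No gene spot was saturated. The number of arrays limits the precision, and the technical SD was 0.131 and 0.129 (log2) in the G1KO and G2KO pairs. A bound ("at least") sets the mean of the brighter culture against the mean, over the arrays of the dim one, of the lowest signal above background or its own signal, whichever was higher, and is open to dye bias. Probes were named through RefSeq (GRCm38.p6) by accession (24375), symbol (6301) or older symbol (2426), and 8072 kept the file's name. Positions are those of the array design. The exon or untranslated region of a probe was not analysed here. The steps were tested on simulated data.

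The members and lists were chosen with earlier results of these data known. All members were named, with every probe. Of the other lists, genes called at their brightest probe were named, up to 6 per list by size, with Ccng1, Ccng2, Xist and the 10 genes nearest in profile. Of the genes listed at the outset, 2 were left out of the lists and are not reported here, and other uncalled genes enter by their counts. Genes named beyond that were chosen after their values were seen. Other probes of several list genes, such as Synpo and Map2, were tested and not called. Alternatives were the scanner's ratio, the series table, no background correction, median centring, other filters on dim probes, a 4-fold threshold, single arrays, single dyes and other normalisations between arrays.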

Additional observations from a re-analysis of the deposited data

Results flagged for a closer look

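Msln and Krt19 were the members that moved in opposite directions in the 2 comparisons on every array. Msln was lower in G1KO, with a log2 ratio of -2.79, and higher in the RNA labelled G2KO, at 1.60. Krt19 was higher in G1KO, at 2.90, and lower in the RNA labelled G2KO, at -1.40. With 1 culture per genotype the difference between the comparisons was not tested.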

How the results depend on the processing

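Across 96 values of member ratios under the alternatives run, 0 changed sign and 34 moved by more than the SD between arrays. The counts of member probes called in G1KO ran from 8 to 11 lower under the alternatives run, against 9, with 1 higher in each. The 11 came with the scanner's ratio and the series table, where the dimmer Muc16 and Krt8 probes were called too. In the RNA labelled G2KO, 2 member probes rather than 1 were called lower with the scanner software's log ratio and with the authors' series table, and with a 4-fold threshold 0 were called lower and 0 higher. Over the whole array 1479 probes were called in the G1KO pair and 1619 in the other. These counts became 2855 and 3396 with the scanner's ratio, 2849 and 3392 with the series table, 813 and 955 with median centring, and 385 and 467 with a 4-fold threshold. Calls on single arrays gave 1678 to 1691 probes in G1KO, with 9 to 10 member probes lower and 1 higher, and 1838 to 1847 in the RNA labelled G2KO, with 1 and 1. The widest ranges were those of 4 values. The dimmer Muc16 probe ranged from -2.68 to -0.31 in G1KO, the dimmer Gpm6a probe from -5.40 to -4.25, Krt18 in the RNA labelled G2KO from -1.58 to -0.25 and Krt19 there from -2.52 to -1.28. The cause was not tested. The count of 12 member probes higher in the WT of the G1KO pair than in the WT of the G2KO pair was 10 with a 4-fold threshold and 12 under the other alternatives run. No paired analysis was possible because each pair of arrays holds the same 2 RNAs and each ratio already sets knockout against WT on 1 array. Signal near background limits Krt8, the dimmer Muc16 probe, the dimmer Gpm6a probe in G1KO and all members in the G2KO pair apart from Msln. Krt19 is among them through the RNA labelled G2KO, where it was above background but low, at 6.74 and 6.70. The dimmer Gpm6a probe stood at 6.78 and 7.17 in G1KO. Lrrn4 and the brighter Gpm6a probe were also dim in G1KO, with mean log2 levels of 7.93 and 7.65.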
